A study of Mus musculus with 10 samples.

Results

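The blood vessel endothelial marker module is a list of 35 mouse genes that are typical of the cells lining blood vessels, among the 56748 genes in the count table of this series. RNA-seq measured them in primary differentiated adipocytes, in 5 control and 5 KO libraries, from cultures that were grown from the stromal vascular fraction of inguinal fat of male mice aged 6 to 8 weeks and differentiated for 6 to 8 days. Control libraries carry the genotype Fam20c-flox and KO libraries Fam20c-flox/Adipoq-Cre, so both groups hold the floxed allele and only KO cells hold Cre under the adiponectin promoter, which is active in adipocytes. The culture starts from a mixed fraction that contains vessel cells as well as adipocyte precursors, and sequencing was done on whole cultures. The 35 genes were chosen by name as endothelial genes with the KO against control values of these libraries already known, and with no threshold. The fold changes between the groups are therefore given as a description of the members, with no test of the list.

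Endothelial cells form the inner lining of every vessel, and in fat they pass fatty acids, hormones and leukocytes between blood and adipocytes. Their surface carries sialomucins, adhesion molecules and C-type lectins that contact blood cells and the basement membrane, and their receptors for peptides, adenosine and matrix set vessel tone and permeability. Inside the cell, exchange factors and effectors of small GTPases shape the lumen and hold the junctions closed. Many endothelial genes are switched on by transcription factors of the ETS family, such as Erg and Fli1, which bind DNA around a GGAA core.

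Sequence upstream of the members is shown because they are listed as typical of endothelial cells. Most of them also differed between the groups in the same direction. The cell source of each member in these cultures was not measured. RefSeq promoter windows on GRCm38.p6 matched 19 of the 35 members, with 22 start sites, and the 250 bases before each start were read on the strand of the gene. Letters of an ETS site were searched as CCGGAAG and also with CAGGAAG as a variant, on both strands. They occurred in 11 of the 22 member windows (50%), in 21.9% of the 13549 windows of tested genes and in 17.0% of all 32851 windows of that length. Counted by gene, 10 of the 19 matched members (52.6%) and 25.5% of 10573 tested genes had them in at least 1 window. A match is a run of letters and not a measured binding site. Every match in the member windows was the variant CAGGAAG, read on either strand. The shares of the other windows count both strings together. The following 5 stretches lie in no annotated exon, and capitals mark the ETS letters, which appear as CTTCCTG where they lie on the opposite strand. The match starts 174 bases before the start site in Emcn, 17 in Kcna5, 64 in Ushbp1, 129 in Rhoj and 57 in Adgrf5.
Emcn, chr3:137340828-137341066, plus strand: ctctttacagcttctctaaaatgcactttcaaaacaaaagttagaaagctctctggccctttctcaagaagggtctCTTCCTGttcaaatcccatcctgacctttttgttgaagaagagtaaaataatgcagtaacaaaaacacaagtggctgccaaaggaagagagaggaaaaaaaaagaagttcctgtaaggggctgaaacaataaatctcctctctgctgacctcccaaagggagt
Kcna5, chr6:126535556-126535805, minus strand: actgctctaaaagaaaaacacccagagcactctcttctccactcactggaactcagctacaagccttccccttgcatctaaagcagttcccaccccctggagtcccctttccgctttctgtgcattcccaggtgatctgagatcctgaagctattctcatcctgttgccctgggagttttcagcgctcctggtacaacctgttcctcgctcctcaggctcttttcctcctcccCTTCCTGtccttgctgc
Ushbp1, chr8:71395803-71396051, minus strand: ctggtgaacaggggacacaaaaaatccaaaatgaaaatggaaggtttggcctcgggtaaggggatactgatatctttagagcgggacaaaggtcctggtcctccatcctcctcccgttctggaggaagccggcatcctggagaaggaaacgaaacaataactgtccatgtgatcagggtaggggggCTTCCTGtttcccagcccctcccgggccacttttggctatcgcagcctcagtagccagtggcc
Rhoj, chr12:75308063-75308312, plus strand: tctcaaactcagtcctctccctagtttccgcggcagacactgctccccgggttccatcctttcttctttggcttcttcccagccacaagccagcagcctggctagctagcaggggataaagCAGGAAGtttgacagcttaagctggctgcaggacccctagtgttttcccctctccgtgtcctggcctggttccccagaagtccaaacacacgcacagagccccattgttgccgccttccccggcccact
Adgrf5, chr17:43360181-43360430, plus strand: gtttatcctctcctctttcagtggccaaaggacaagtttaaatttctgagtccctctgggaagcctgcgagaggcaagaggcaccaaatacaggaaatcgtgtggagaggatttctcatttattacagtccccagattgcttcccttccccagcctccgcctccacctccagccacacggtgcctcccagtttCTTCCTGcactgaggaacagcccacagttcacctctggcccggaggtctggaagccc

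Emcn, Kcna5 and Ushbp1 are among the members with the larger decreases described next, while Rhoj and Adgrf5 did not pass the limit between KO and control. ETS letters stood in 7 of the 15 matched members that were called lower in KO and in 3 of the 4 matched members that were not. ACAAAG, with its variant ACAATG, letters of a SOX site, stood in 27.3% of member windows, 17.5% of tested-gene windows and 25.2% of all windows. AGATAA, the site of GATA factors, stood in 4.55%, 5.76% and 9.99% in the same order. TATAAA stood in 9.09%, 6.78% and 12.4%, and GTAAACA, with its variant ATAAACA, a forkhead site, in 4.55%, 4.35% and 7.10%. The TATA letters (TATAAA) can overlap the forkhead variant, and no string contains another. The median GC content was 56.2% in member windows and 52.4% in all windows.

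Total counts per library were 18949106 to 26237825 in control and 19883101 to 23291792 in KO libraries. Fam20c itself, in CPM (counts after scaling for library size), was at 8.86 to 11.9 in control and 6.65 to 7.74 in KO libraries, a log2 fold change of -0.49 with each KO library below each control library, in counts that cover the whole gene and not the floxed part alone. Mitochondrial genes took 2.09% of the counts in control 5 and 1.92% in KO 4, against 3.84% to 5.09% in the other 8 libraries. Leaving out either library moved no member across the limit. Nothing in the labels says whether the libraries of a group come from separate mice, so p-values measure the spread between these libraries, which may be partly technical.

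All 35 members had enough counts to be tested, with 4 to 4180 counts per library. Kcna5 and Myct1 had fewer than 10 counts in at least 1 library. Members are called lower where edgeR's quasi-likelihood test gave an adjusted p under 0.05 over all 14270 genes tested. This applied to 25 of the 35 members, beside 265 of all genes tested (1.86%), and because the members were chosen with this contrast known, nothing is read from the difference of these shares. By edgeR 0 members were called higher, beside 44 of all genes (0.308%). By DESeq2 0 members were higher as well, and 1 member had an unadjusted edgeR p under 0.05 with a higher level in KO. In the same 25 members every KO library lay below every control library, an arrangement found in 380 of all genes (2.66%), and no member had every KO library above every control library, beside 187 of all genes (1.31%). A log2 fold change under -1, a decrease of more than 2-fold, was reached by 20 called members, beside 76 of all genes (0.533%). The number of all genes called moved with single libraries. It was 164 lower without KO 2 and 171 without KO 5. The number higher was 119 without control 4 and 19 to 29 without control 1, 3 or 5 or KO 2, 3, 4 or 5. In these fits 25 members were called lower, with 26 without control 2 and 27 without KO 1. As the members were chosen with this contrast known, nothing is read from how steady their number was. In whole cultures, fewer endothelial cells and less RNA per endothelial cell cannot be told apart.

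The log2 fold changes of the 35 members ran from -1.46 for Fgd5 to 0.08 for Rgcc, with a median of -1.06 and an SD of 0.43, while the standard error of a single member had a median of 0.141. Over all genes tested the median was -0.00 and the SD 0.22. The 25 called members kept between 36.3% and 61.5% of the control mean, and the SD of their fold changes was 0.20. The 10 members that were not called ran from -0.60 to 0.08, with an SD of 0.25.

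**Figure D1:**
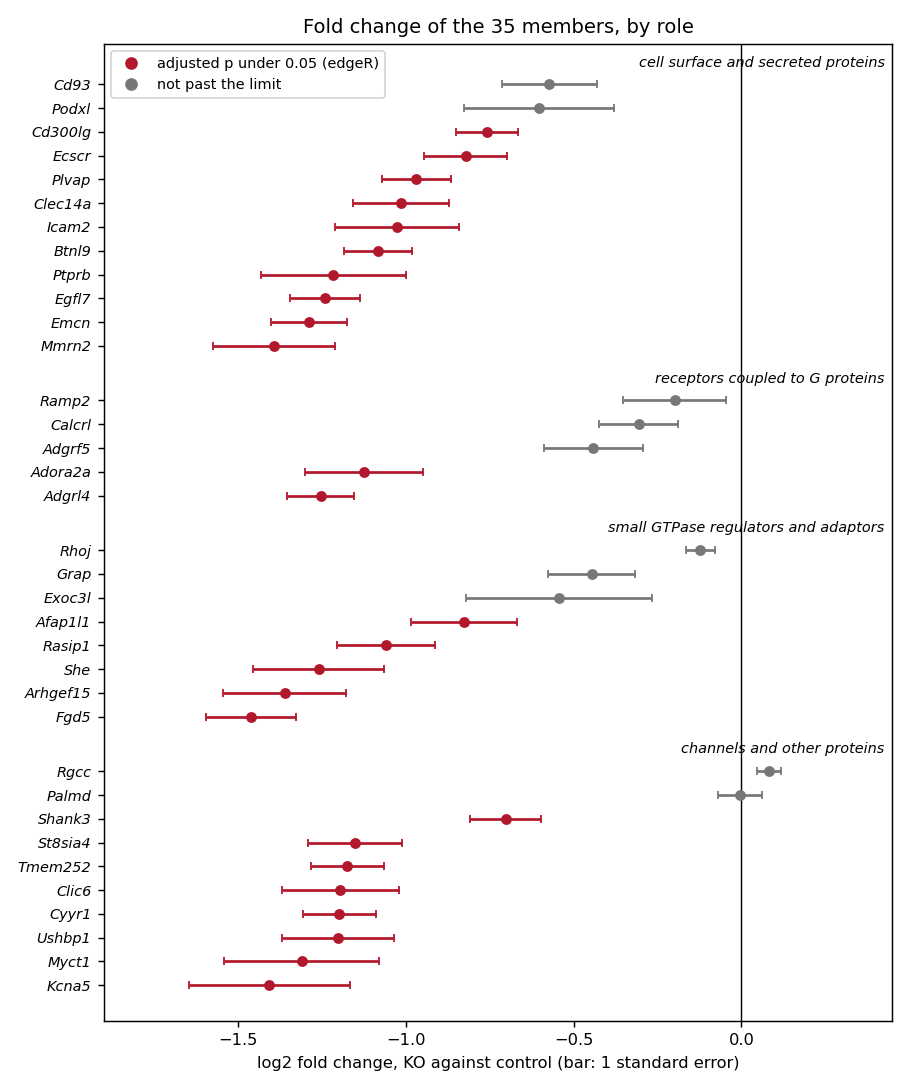
Log2 fold change of each of the 35 members, KO against control, with bars of 1 standard error from edgeR (n = 5 libraries per group), grouped by role. Red points passed an adjusted p of 0.05 over all genes and grey points did not; 25 red points lie between -1.46 and -0.70 and 10 grey points between -0.60 and 0.08.

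Of the 12 members at the cell surface or secreted from the cell, 10 were called lower and 2 were not, with a median log2 fold change of -1.02. Emcn encodes endomucin, a sialomucin of capillary and venous endothelium (chromosome 3, 137341067 to 137432185, plus strand). Emcn had 12.3, 11.9, 14.5, 11.8 and 13.8 CPM in controls 1 to 5 and 5.11, 4.87, 6.81, 5.13 and 4.33 CPM in KO 1 to 5. The highest KO library was at 6.81 CPM and the lowest control library at 11.8 CPM, and the log2 fold change was -1.29 (standard error 0.114). Plvap, which builds the diaphragms of fenestrae and caveolae (chromosome 8, 71497765 to 71511752, minus strand), had 9.54, 8.44, 11.6, 9.72 and 10.7 CPM in controls 1 to 5 and 5.56, 4.39, 5.54, 4.95 and 5.09 CPM in KO 1 to 5. The groups were clearly separated, with a log2 fold change of -0.97 (standard error 0.102). Ptprb, the vascular endothelial phosphatase that acts on Tie2 and VE-cadherin (chromosome 10, 116275523 to 116389535, plus strand), had 5.98, 5.32, 4.80, 8.75 and 7.10 CPM in controls 1 to 5 and 3.22, 3.69, 2.31, 1.56 and 2.95 CPM in KO 1 to 5. Control 4 was the highest and KO 4 the lowest library, and the mean went from 6.39 ± 1.58 to 2.75 ± 0.831 CPM (SD, n = 5, control before KO here and in later pairs of means), a log2 fold change of -1.22 (standard error 0.217). Egfl7, a secreted matrix protein whose gene also hosts the microRNA miR-126, had 8.08, 8.25, 9.88, 9.14 and 8.24 CPM in controls 1 to 5 and 4.51, 3.60, 3.27, 3.25 and 3.82 CPM in KO 1 to 5. No KO library reached a control library, and the log2 fold change was -1.24 (standard error 0.106). The exons of Egfl7 overlap those of Agpat2 on the opposite strand, and since the strand setting of the counting is not stated, fragments of both genes may be mixed.

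Multimerin 2, encoded by Mmrn2, is an endothelial matrix protein that binds the C-type lectins CD93 and CLEC14A on the same cells, so the 3 members form a ligand with its receptors. Mmrn2 had 2.78, 4.12, 4.28, 3.24 and 5.20 CPM in controls 1 to 5 and 1.29, 1.80, 1.27, 1.51 and 1.63 CPM in KO 1 to 5, with a log2 fold change of -1.39 (standard error 0.182). Clec14a had 2.62, 3.19, 4.23, 2.95 and 3.68 CPM in controls 1 to 5 and 1.74, 1.62, 1.66, 1.56 and 1.68 CPM in KO 1 to 5, and the KO libraries were close to one another (SD 0.0663 CPM). Its log2 fold change was -1.02 (standard error 0.143). Cd93 had 24.4, 20.0, 25.5, 27.5 and 27.5 CPM in controls 1 to 5 and 23.7, 14.1, 15.6, 17.0 and 13.5 CPM in KO 1 to 5. Here KO 1 lay inside the control range while the other 4 KO libraries lay below it, and Cd93 did not pass the limit, at a log2 fold change of -0.57 (standard error 0.141). Measured within each library as a log2 ratio of CPM, Cd93 to Mmrn2 was 2.66 ± 0.39 in control and 3.39 ± 0.49 in KO (SD, n = 5), and Clec14a to Mmrn2 was -0.22 ± 0.20 in control and 0.14 ± 0.23 in KO. Both ratios overlapped between the groups. Of the 3 fold changes, that of the ligand was the largest in size and that of Cd93 the smallest, and differences between the genes were not tested.

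The other surface members ranged from -1.08 to -0.60. Btnl9, a butyrophilin-like protein, went from 11.0 ± 1.32 to 5.19 ± 0.510 CPM (log2 fold change -1.08, standard error 0.101). Icam2, the adhesion molecule bound by leukocyte integrins, went from 3.08 ± 0.652 to 1.52 ± 0.324 CPM (log2 fold change -1.03, standard error 0.184). Ecscr, a regulator of endothelial chemotaxis, went from 4.53 ± 0.360 to 2.57 ± 0.436 CPM (log2 fold change -0.82, standard error 0.125), and Cd300lg, a mucin-like immunoglobulin protein of capillaries, from 17.2 ± 1.43 to 10.2 ± 1.27 CPM (log2 fold change -0.76, standard error 0.0912). In each of these 4 genes the groups did not overlap. Podxl, the lumen sialomucin podocalyxin, was lower in mean but overlapped, with 1.84, 1.39, 1.83, 3.24 and 2.32 CPM in controls 1 to 5 and 1.64, 1.36, 1.44, 1.47 and 1.02 CPM in KO 1 to 5. It did not pass the limit, at a log2 fold change of -0.60 (standard error 0.224), and control 4 alone stood above 3 CPM.

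The receptor members diverged. Of the 5 genes, 2 were called lower and 3 were not, and the median log2 fold change was -0.44. Adgrl4, an adhesion receptor of sprouting endothelium, went from 25.8 ± 2.37 to 10.8 ± 1.71 CPM (log2 fold change -1.25, standard error 0.101), and Adora2a, a receptor for adenosine, from 2.64 ± 0.266 to 1.21 ± 0.323 CPM (log2 fold change -1.12, standard error 0.176), both without overlap. Adgrf5, another adhesion receptor (chromosome 17, 43360451 to 43459557, plus strand), had 79.9, 73.5, 58.9, 104 and 76.2 CPM in controls 1 to 5 and 72.5, 63.5, 47.9, 46.5 and 58.9 CPM in KO 1 to 5. Control 3 lay below KO 1 and KO 2, so the groups overlapped, and the log2 fold change was -0.44 (standard error 0.148).

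Calcrl and Ramp2 encode the receptor and the accessory protein that together bind adrenomedullin, a peptide that dilates and stabilises vessels. Calcrl (chromosome 2, 84330626 to 84425411, minus strand) had 8.44, 7.76, 7.52, 10.5 and 8.71 CPM in controls 1 to 5 and 8.18, 6.67, 7.68, 5.63 and 6.51 CPM in KO 1 to 5. Ramp2 (chromosome 11, 101246028 to 101259546, plus strand) had 10.1, 11.3, 11.6, 6.38 and 9.72 CPM in controls 1 to 5 and 7.74, 6.89, 10.2, 8.38 and 9.67 CPM in KO 1 to 5. Control 4 held both the highest Calcrl and the lowest Ramp2 value of all 10 libraries. The log2 fold changes were -0.31 (standard error 0.118) for Calcrl and -0.20 (standard error 0.154) for Ramp2, neither past the limit, and the log2 ratio of Calcrl to Ramp2 was -0.17 ± 0.53 in control and -0.30 ± 0.30 in KO (SD, n = 5). Exons of Ramp2 overlap those of Vps25 on the same strand. Of 9 further genes listed for this receptor system, 7 could be tested, 1 was lower and 0 were higher by edgeR and by DESeq2, with 2 higher at an unadjusted edgeR p under 0.05. The lower gene was Ramp3, an alternative partner of Calcrl, at 0.934 ± 0.339 CPM in control and 0.287 ± 0.0601 CPM in KO (log2 fold change -1.67, standard error 0.294, adjusted p = 0.00941 by edgeR). Adm, the adrenomedullin gene, had 169 ± 25.9 and 168 ± 26.7 CPM (log2 fold change -0.02, adjusted p = 0.983 by the same test). Ramp1 had a log2 fold change of 0.02, Ackr3 of -0.21, Crcp of -0.05, Adm2 of 0.48 and Calca of 0.60, and edgeR gave adjusted p-values of 0.988, 0.843, 0.887, 0.412 and 0.0626. Calcr and Calcb were too low to test.

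Among 8 regulators of small GTPases and adaptors, 5 were called lower and 3 were not, with a median log2 fold change of -0.94. Fgd5, an exchange factor for Cdc42 that is enriched in endothelial and blood stem cells (chromosome 6, 91978878 to 92076004, plus strand), had 5.35, 5.06, 4.99, 4.21 and 5.50 CPM in controls 1 to 5 and 1.89, 1.36, 2.18, 1.65 and 2.04 CPM in KO 1 to 5. It was the member with the largest decrease, to 36.3% of the control mean, with a log2 fold change of -1.46 (standard error 0.135). Rasip1, a Rap1 effector needed for lumen formation (chromosome 7, 45627488 to 45639093, plus strand), had 5.24, 5.36, 5.74, 5.80 and 4.65 CPM in controls 1 to 5 and 2.33, 2.50, 3.49, 1.83 and 2.65 CPM in KO 1 to 5. KO 3 came closest to the controls, and the log2 fold change was -1.06 (standard error 0.147). Rasip1 exons overlap those of Izumo1. Arhgef15, an exchange factor for small GTPases, went from 1.92 ± 0.335 to 0.745 ± 0.139 CPM (log2 fold change -1.36, standard error 0.183), She, an SH2-domain adaptor, from 4.54 ± 0.424 to 1.89 ± 0.616 CPM (log2 fold change -1.26, standard error 0.195), and Afap1l1, an actin-associated protein, from 7.12 ± 1.03 to 4.02 ± 0.963 CPM (log2 fold change -0.83, standard error 0.158).

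The remaining GTPase-linked members overlapped between the groups. Grap, a GRB2-related adaptor, had 4.72, 5.21, 5.74, 5.17 and 4.90 CPM in controls 1 to 5 and 4.96, 4.13, 3.40, 3.07 and 3.36 CPM in KO 1 to 5. KO 1 lay inside the control range and the other KO libraries below it, with a log2 fold change of -0.45 (standard error 0.130). Exoc3l, related to the exocyst subunit EXOC3, had 1.73, 1.24, 2.26, 1.45 and 1.44 CPM in controls 1 to 5 and 1.29, 1.54, 1.44, 0.550 and 0.662 CPM in KO 1 to 5, with a log2 fold change of -0.54 (standard error 0.277). KO 4 and KO 5 were low, and the other KO libraries lay among the controls. Rhoj, a small GTPase related to Cdc42 (chromosome 12, 75308322 to 75401456, plus strand), had 107, 111, 115, 116 and 122 CPM in controls 1 to 5 and 109, 100.3, 103, 109 and 104 CPM in KO 1 to 5. Its levels were high and even, and the log2 fold change was -0.12 (standard error 0.0437).

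Of the 10 channels and other proteins, 8 were called lower and 2 were not, with a median log2 fold change of -1.18. Kcna5, a voltage-gated potassium channel (chromosome 6, 126532551 to 126535412, minus strand), had 0.787, 1.01, 0.988, 0.580 and 0.845 CPM in controls 1 to 5 and 0.397, 0.351, 0.349, 0.275 and 0.204 CPM in KO 1 to 5. Although the groups did not overlap, these values rest on few reads, with only 4 counts in the lowest library, and the log2 fold change was -1.41 (standard error 0.240). Myct1, an endothelial membrane protein first described as a MYC target, was similarly low and went from 1.35 ± 0.256 to 0.540 ± 0.179 CPM (log2 fold change -1.31, standard error 0.232). Ushbp1, a partner of the scaffold protein harmonin, went from 4.13 ± 0.444 to 1.79 ± 0.454 CPM (log2 fold change -1.20, standard error 0.166), and Clic6, of the intracellular chloride channel family, from 3.34 ± 0.453 to 1.46 ± 0.362 CPM (log2 fold change -1.20, standard error 0.174). Cyyr1 was the most even of the called members, at 3.47 ± 0.158 CPM in control and 1.51 ± 0.121 CPM in KO (log2 fold change -1.20, standard error 0.108). Tmem252 went from 9.34 ± 0.790 to 4.14 ± 0.637 CPM (log2 fold change -1.17, standard error 0.109), and St8sia4, a polysialyltransferase, from 4.85 ± 0.410 to 2.17 ± 0.476 CPM (log2 fold change -1.15, standard error 0.140). The smallest decrease that was called belonged to Shank3, a scaffold protein best known from synapses, at 5.68 ± 0.557 CPM in control and 3.49 ± 0.371 CPM in KO (log2 fold change -0.70, standard error 0.106).

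The exceptions of this group were Palmd and Rgcc. Palmd, which encodes palmdelphin, a protein of the paralemmin family (chromosome 3, 116918258 to 116968987, minus strand), had 18.0, 17.3, 21.02, 19.4 and 19.8 CPM in controls 1 to 5 and 18.3, 17.7, 19.5, 20.7 and 19.1 CPM in KO 1 to 5. Both group means rounded to 19.1 CPM, the log2 fold change was -0.00 (standard error 0.0666), and its sign changed between fits. Rgcc, a regulator of the cell cycle that is induced by complement (chromosome 14, 79288756 to 79301645, minus strand), had 149.8, 157, 154, 157 and 163 CPM in controls 1 to 5 and 163, 160.4, 169, 169.5 and 165 CPM in KO 1 to 5. It was the only member with a higher mean in KO, at a log2 fold change of 0.08 (standard error 0.0354) and not past the limit, and KO 2 lay below control 5.

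**Figure D2:**
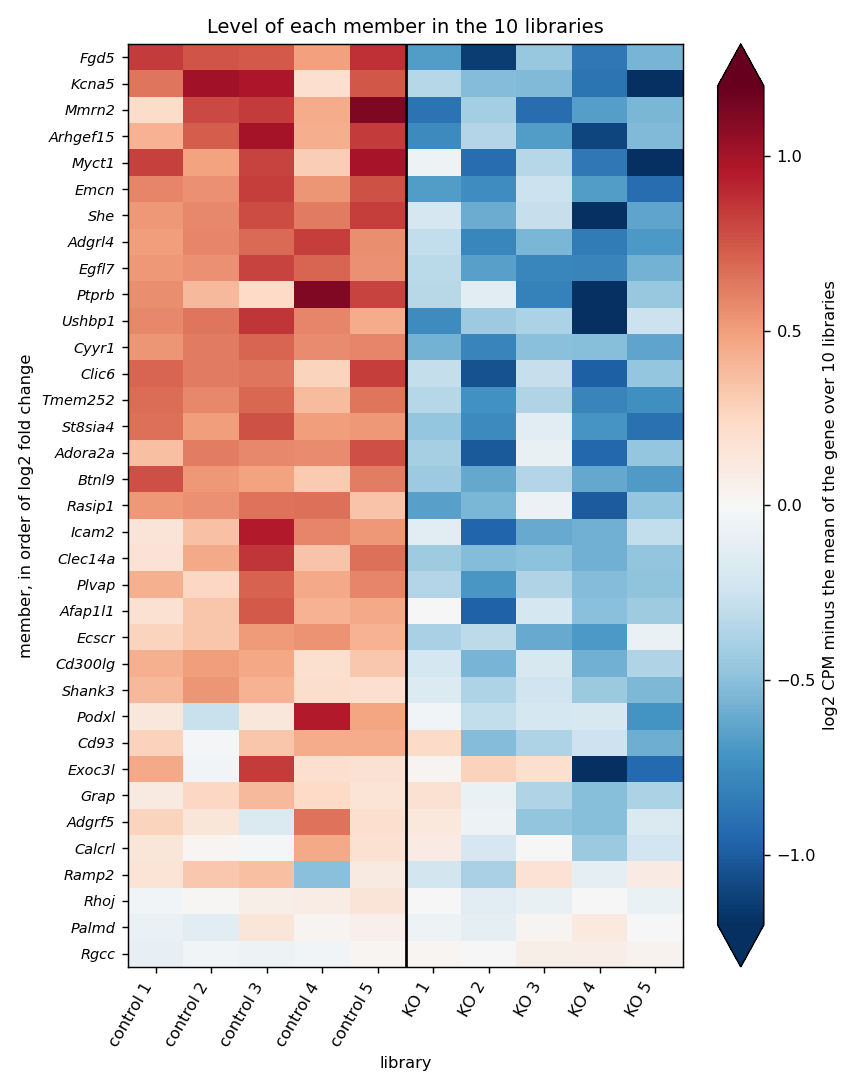
Level of the 35 members (rows, in order of log2 fold change) in the 10 libraries (columns), as log2 CPM minus the mean of the gene over all libraries. The upper 25 rows are above their mean in all 5 control libraries and at or below it in all 5 KO libraries, and the lower 10 rows are mixed.

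Members that did not pass the limit were mostly those with the highest levels. Per kilobase of annotated exon, the control level was 170 CPM for Rgcc, 17.6 for Rhoj and 8.72 for Adgrf5, followed by 6.29 for Cd300lg, 5.62 for Adgrl4 and 5.03 for Plvap, and the lowest was 0.241 for St8sia4. Of the 10 members with the highest control level per kilobase, 7 were not called (Rgcc, Rhoj, Adgrf5, Cd93, Ramp2, Grap and Palmd), against 3 of the other 25 (Calcrl, Exoc3l and Podxl). Rgcc, Rhoj and Adgrf5 made up 59.5% of the summed CPM of the list in control libraries. Their sum was 328 to 378 CPM in control and 319 to 345 CPM in KO libraries. The summed CPM of the other 32 members was 226 to 254 in control and 124 to 153 in KO libraries, 57.0% of the control mean.

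**Figure D3:**
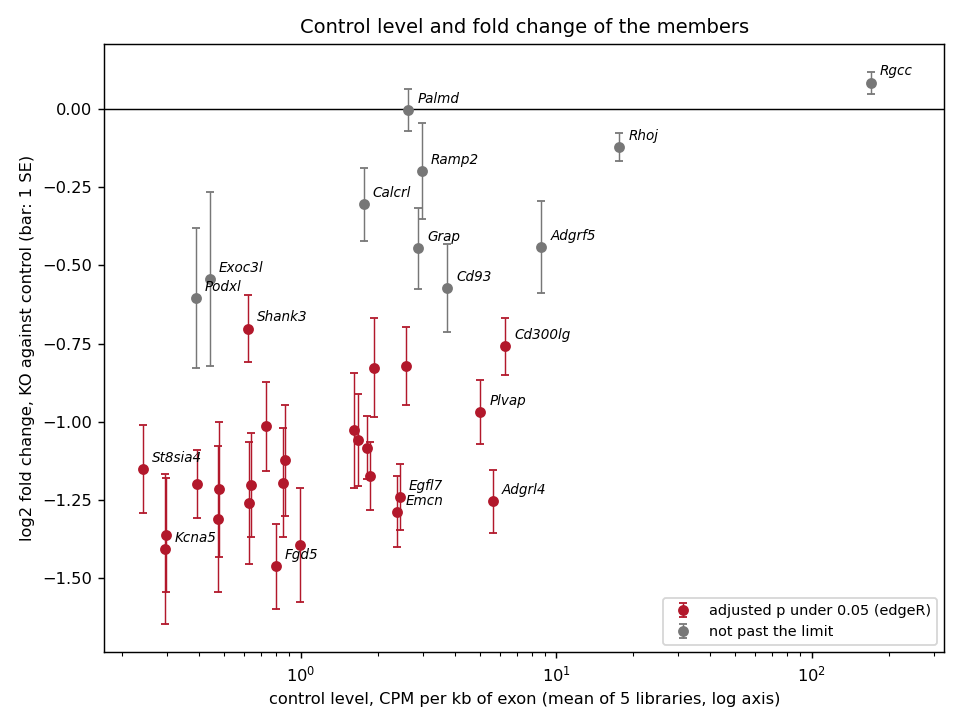
Control level of each member in CPM per kilobase of exon (log axis, mean of 5 libraries) against its log2 fold change, KO against control, with bars of 1 standard error. Red points passed an adjusted p of 0.05 and grey points did not; of the 10 members to the right, 7 are grey.

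The marker lists give the setting of these values. Of 39 endothelial genes outside the members, 38 could be tested, 24 were lower and 0 higher by edgeR and by DESeq2, with 0 higher also at an unadjusted edgeR p under 0.05, and the median log2 fold change was -0.99. Pecam1, Cdh5, Tie1 and Kdr, which define the cell type, differed by -1.23, -1.27, -1.35 and -0.85 on the log2 scale (adjusted p from edgeR 0.000271, 5.3e-05, 8.41e-05 and 0.000733). Cdh5 (VE-cadherin) was at 53.1 ± 5.11 CPM in control and 22.1 ± 3.67 CPM in KO, so endothelial transcripts were present in both groups. The largest change was that of Esm1, a gene of sprouting tip cells (log2 fold change -1.84, edgeR adjusted p = 0.00112), and the smallest that of Thbd, which encodes thrombomodulin (-0.01, edgeR adjusted p = 0.997). The list contains 14 genes that were not called, among them Tek, Flt1, Nos3 and Vwf, so here too a part of the endothelial genes showed no call. These lists were written with earlier results of the same libraries known.

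Lists for vessel types gave small counts and are not separate from the list above or from each other. Lower genes numbered 3 of 9 tested for capillaries, 2 of 8 for arteries, 2 of 8 for veins and 3 of 8 for lymphatic vessels, and edgeR called 0 higher in any of them. Of these, Gpihbp1, Kdr, Dll4, Sox17 and Flt4 are also among the 24 lower genes of the endothelial list, and Mmrn1 is counted for both veins and lymphatic vessels. By DESeq2 1 capillary gene was higher. At an unadjusted edgeR p under 0.05 the higher genes were 2 for capillaries, 1 for veins and 0 for arteries and lymphatic vessels. The 2 capillary genes were Fabp4 and Fabp5, with log2 fold changes of 0.12 and 0.13. Fabp4, with a mean control level of 20805 CPM, also stands on the adipocyte list described next. Which cells these transcripts came from was not measured, so no rise of capillary cells is read from them. Of the markers of other cell types, the adipocyte list had 0 of 15 genes called in either direction by edgeR, with a summed level of 41107 to 42118 CPM in control and 42903 to 44850 CPM in KO libraries. By DESeq2, 3 adipocyte genes were higher and 0 lower, and 6 of the 15 were higher at an unadjusted edgeR p under 0.05. Pericyte and smooth muscle markers had 0 of 12 called in either direction by edgeR (292 to 432 CPM in control, 272 to 399 CPM in KO), 0 by DESeq2, and 5 lower at an unadjusted edgeR p under 0.05. Macrophage markers had 1 of 15 lower (1567 to 2385 against 1377 to 2263 CPM) and Schwann cell markers 1 of 7 lower (117 to 141 against 94.5 to 121 CPM). Adipose progenitor markers moved in part with the members, with 6 of 15 lower, namely Cd34, Clec3b, Col1a1, Col3a1, Lum and Pdgfra, and a summed level of 5202 to 6726 CPM in control and 4362 to 5169 CPM in KO. The largest parts of that sum were Col3a1 (mean 2630 CPM in control, 1896 CPM in KO) and Col1a1 (1406 and 1078 CPM). Dcn and Ly6a, next in level, were not called (log2 fold changes -0.04 and -0.06). Endothelial cells also express Cd34. Mesothelial markers were little detected (2 of 6 testable, 0 called by edgeR or DESeq2 and 0 at an unadjusted edgeR p under 0.05), and lymphocyte and epithelial markers were near 0, with summed levels of at most 0.803 and 0.351 CPM in any library. The part of other cell types in the differences of the members was not tested.

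Set against the mean of the 38 other endothelial genes in the same library, which itself differed by -0.83 on the log2 scale, the members can be placed by their distance from other endothelial genes. That mean includes the 14 genes of the list that were not called. Pecam1, Cdh5, Tie1 and Kdr alone differed by -1.23, -1.27, -1.35 and -0.85, beside -1.25 for Adgrl4 and -1.24 for Egfl7. For 26 of the 35 members the ratio to the mean overlapped between the groups. Fgd5, She, Adgrl4 and Egfl7 were lower in every KO library than in every control library also in this ratio, with differences of -0.60, -0.46, -0.43 and -0.40 on the log2 scale, an arrangement found in 18 of all 14270 genes tested (0.126%). In Grap, Calcrl, Rhoj, Palmd and Rgcc the ratio was higher in every KO library than in every control library, with differences of 0.38, 0.52, 0.71, 0.83 and 0.91. Of all genes tested, 11441 (80.2%) had that arrangement, since a gene with no difference between the groups gains by as much as the reference is lower. The ratio uses the same contrast as the choice of the members and was not tested, and nothing is read from these shares.

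Libraries of the same group also differed from each other in the members. The mean log2 CPM of the 35 members was 2.76 to 2.93 in control and 1.75 to 2.11 in KO libraries, with an SD of 0.07 and 0.15. KO 4 had the lowest level of its group in 15 members and KO 1 the highest in 17. Among the controls, control 3 was highest in 15 members and control 1 lowest in 14. In 24 of the 35 members the SD on the log2 scale was larger in KO than in control, with medians of 0.24 and 0.15, and the KO values of the called members rest on fewer counts.

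**Figure D4:**
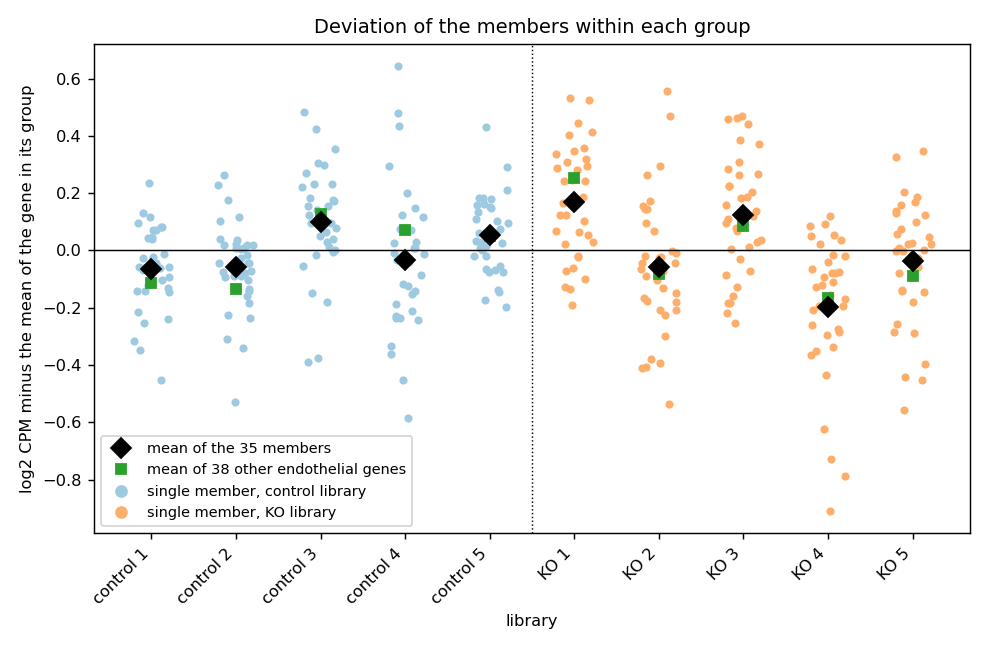
Deviation of each member in each library from the mean of its group, in log2 CPM (small points), with the mean over the 35 members (diamonds) and over 38 other endothelial genes (squares). In the KO group the members' mean ran from -0.20 in KO 4 to 0.17 in KO 1, and the squares lie close to the diamonds in most libraries.

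After the group mean was taken from each library, members tended to be high and low together. The median Pearson r over the 595 pairs of members was 0.23 and 72.1% of pairs were positive, against a median of -0.00 and 49.9% positive over all pairs of tested genes. These r values are descriptions over the same 10 libraries with 2 group means removed, and all genes of a library share its RNA, depth and composition. The median was 0.33 among the 25 called members and 0.15 among the 10 others, 0.25 among the 38 other endothelial genes and 0.25 between members and these genes. The members thus varied with other endothelial genes about as much as with each other.

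**Figure D5:**
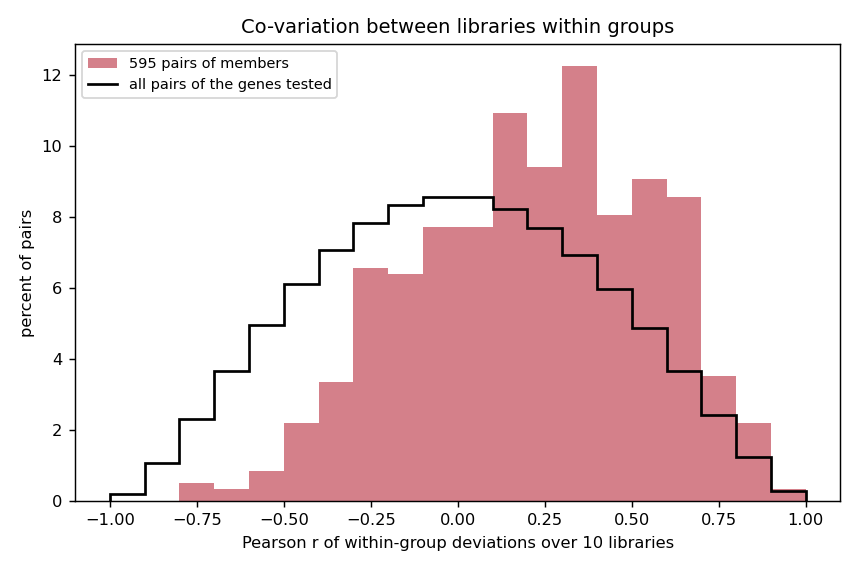
Distribution of Pearson r between the within-group deviations of gene pairs over 10 libraries, for the 595 pairs of members (filled) and for all pairs of the 14270 genes tested (line), in percent of pairs. The filled distribution lies to the right, with a median of 0.23 against -0.00.

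With the mean of the other 34 members, r was positive for 33 members and above 0.5 for 16, of which 13 were called. The highest values were 0.88 for She, 0.81 for Tmem252 and 0.72 for Adgrl4. At the other end stood Palmd (0.03), Adgrf5 (0.01), Rgcc (-0.01) and Mmrn2 (-0.12). Mmrn2 is a member with a large decrease between the groups whose deviations within the groups did not follow those of the others. Grap (0.61), Exoc3l (0.61), Calcrl (0.53) and Cd93 (0.43) were not called but did vary with the other members within the groups.

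The median r of a gene with the members' mean was 0.01 over the 14235 tested genes outside the list, 0.24 over the 240 genes called lower outside it and 0.50 over the 38 other endothelial genes. Macrophage markers (0.48) and Schwann cell markers (0.48) came close to the endothelial genes, adipose progenitor markers were at 0.24 and adipocyte markers at 0.14. Of the vessel lists, arteries were at 0.45 and capillaries at 0.40, but veins at 0.04 and lymphatic vessels at -0.03. Pericyte and smooth muscle markers were at 0.07. Among tested genes outside the list whose average log2 CPM was 0 or more, the 10 most alike were Bax (r = 0.96), Mavs (0.93), Gnb2 (0.92), Gpihbp1 (0.91), Pip5k1c (0.91), Mal2 (0.91), Rapgef3 (0.91), Samd14 (0.91), Syt3 (0.90) and Rnft2 (0.90), each over 10 libraries. Of these, Gpihbp1, the capillary protein that anchors lipoprotein lipase, and Rapgef3, an exchange factor for Rap1, differed by -1.26 and -0.82 on the log2 scale (adjusted p from edgeR 0.000136 and 0.0146). The other 8 were not called, with log2 fold changes between -0.27 and 0.00. Bax, Mavs and Gnb2 are expressed in most cell types. These 10 were picked as the highest r values among many tested genes, so nothing is read from which genes they are.

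The 35 members lie on 15 chromosomes, with at most 6 on 1 chromosome. The closest pair, Ushbp1 and Plvap on chromosome 8, are 101963 bases apart, and Ramp2 and Cd300lg on chromosome 11 are 781963 bases apart. In the first pair both genes were called lower, and in the second Cd300lg was called and Ramp2 was not. All 35 are protein-coding, and exons overlap those of another annotated gene in 10 of them (Ramp2, Grap, Palmd, Ecscr, Egfl7, Afap1l1, Rasip1, Shank3, Exoc3l and Cyyr1), so that fragments may be shared there.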

How the data were processed

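The authors prepared libraries with the SMARTer kit, mapped reads to GRCm38.p6 with STAR 2.6.0c, counted fragments per gene with featureCounts 1.6.2 on an Ensembl annotation and deposited raw counts of 56748 genes for 10 libraries (0 columns of other samples). The strand setting of the counting is not given in the sources used here.

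The deposited counts were filtered with filterByExpr (minimum count 10), scaled by TMM and fitted in edgeR 4.0.16 (R 4.3.3) for KO against control without covariates by the quasi-likelihood test, with Benjamini-Hochberg adjustment over 14270 genes and a limit of 0.05. The biological coefficient of variation was 9.35%. Standard errors were derived from the fold change and the F statistic. Log2 CPM for within-group deviations used a prior count of 2. Alternatives were DESeq2 1.42.0, other size factors, filters and prior counts, a replicate block and libraries left out. The scripts were tested on simulated counts.

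Positions and exon lengths are those of GENCODE M21, matched on gene identifiers without their version. For 0 of the 35 members was the version the same as in the count table. Exon lengths, levels per kilobase and exon overlaps may therefore differ from those of the annotation used for counting. Members, marker lists and motifs were chosen with earlier results of these data known. Values per library are given for 11 members fixed by name, the 3 largest and 3 smallest changes and all members not past the limit. Outside the list, the named genes are examples fixed by name, the extremes of the endothelial list, the adrenomedullin receptor partners and the 10 genes most alike. Genes of a list that were called were named after their values were seen. Precision depends on the counts per library and on the spread between libraries. SDs over 5 libraries cover technical and culture differences together.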

Additional observations from a re-analysis of the deposited data

Results flagged for a closer look

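In 0 of the 70 groups of 5 libraries (35 members in 2 groups) did the highest or lowest library stand apart by Dixon's ratio above 0.71, where chance alone gives about 3.5.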

How the results depend on the processing

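The number of members called lower was 25 to 27 in the 10 fits that left out 1 library, 26 with DESeq2, 26 without a filter on low counts, 25 with RLE or upper quartile factors and 27 without control 4 and KO 1 together. A minimum count of 30 removed Kcna5 and Myct1 and called 23 of the other members. The 25 called members were called in every alternative fit they entered. Cd93 passed the limit with DESeq2, without the filter, without control 2, without KO 1 and without control 4 and KO 1, and Grap in the last of these and without KO 1. The log2 fold change of Palmd changed sign to 0.00022 with DESeq2, 0.035 without control 3, 0.01 without control 4, 0.01 without control 5, 0.01 without KO 1, 0.03 without KO 2 and 0.019 without control 4 and KO 1, with a range of -0.039 to 0.035 in the fits without 1 library. Leaving out 1 library gave a median log2 fold change of the members of -1.13 to -1.01, an SD of 0.42 to 0.46 and 22 to 24 other endothelial genes called lower. Over all genes the same fits gave 164 to 323 lower and 19 to 119 higher genes. The higher genes were 125 with DESeq2 and 145 without control 4 and KO 1. The median pairwise r of the members was 0.27 with upper quartile factors and 0.20 to 0.30 in the fits without 1 library. The causes of these shifts were not tested. The 4 largest standard errors, 0.224 to 0.277, belonged to Podxl, Myct1, Kcna5 and Exoc3l, each with at most 20 counts in its lowest library.

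The labels do not say whether the replicate numbers pair the samples, and correlations between libraries cannot decide it. Same-numbered libraries had correlations of their deviations of -0.17, 0.09, 0.26, -0.25 and 0.03, and number 3 alone matched its own number best. With a replicate block, 25 members were called lower with a median of -1.08, beside 193 lower and 21 higher genes in all, 23 other endothelial genes lower and a median r of 0.21.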
